A study of Mus musculus with 6 samples.

Results

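Messenger RNA of 9 genes of plasminogen activation and of the tissue factor pathway was followed in 10T1/2 cells, a mouse fibroblast line of mesenchymal origin, by RNA sequencing. They were picked by gene symbol from a count table of 57180 rows, and all 9 were found. The group holds the initiator of coagulation tissue factor (F3), its inhibitors Tfpi and Tfpi2, the thrombin receptor F2r, the protein C receptor Procr, the plasminogen activators Plau and Plat, the urokinase receptor Plaur and the protease inhibitor Serpine2. There were 2 groups of 3 libraries. The first was given photodynamic therapy (PDT), in which the dye chlorin e6, loaded in extracellular vesicles directed at midkine, was followed by light. The second was given PBS. Both groups had been stimulated with TGF-β at 5 ng/mL as a model of cancer-associated fibroblasts. No group went without TGF-β, so its own effect cannot be read here. Vesicles, dye and light were given only together.

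Tissue factor is a membrane protein that binds factor VIIa and so starts the cascade that ends in thrombin and fibrin. TFPI shuts that complex down, and thrombin acts on cells by cutting the receptor encoded by F2r. Fibrin and matrix are in turn cleared by plasmin, which urokinase (Plau) and tissue-type plasminogen activator (Plat) release from plasminogen. Fibroblasts make many of these proteins in wounds and in tumour stroma, and serpins made by the same cells hold the activators and thrombin in check.

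The PDT libraries held 88669946, 99527847 and 97954533 counts, and the PBS libraries held 86558216, 83195529 and 83259317. On the first principal component, the PDT libraries scored 39.9, 38.9 and 23.7 and the PBS libraries scored -35.9 to -32.9, so PDT replicate 3 lay nearer to PBS than the other PDT libraries did. When the fold changes of all called genes were regressed on those of the remaining PDT libraries, replicate 3 had a slope of 0.861, and replicates 1 and 2 had 1.03 and 1.02. The fibroblast markers Col1a1, Col1a2, Pdgfra, Pdgfrb, Thy1, Vim, S100a4 and Acta2 passed the low-count filter in 8 of 8 cases. They summed to 15900 to 16600 CPM in PDT and 24600 to 25800 in PBS, with 6 lower and 0 higher. Most of the difference in the sum came from Col1a1 (2428 CPM in PDT, 6025 in PBS) and Col1a2 (3954 and 7463). Pdgfra and Pdgfrb had log2 fold changes of -0.31 and -0.25, and S100a4 and Thy1, at 0.11 and 0.04, were not called. CPM here are normalised read counts, scaled to the library total after TMM adjustment. Thy1 was low, at 0.179 to 0.527 CPM in PDT and 0.11 to 0.466 in PBS. Of 8 endothelial markers Kdr, Erg and Emcn were at 0 in every library, and the summed level was 0.736 to 1.04 CPM in PDT and 0.87 to 1.70 in PBS. Of these Tek was called lower, at 0.209 to 0.298 CPM in PDT and 0.445 to 1.04 in PBS (edgeR adjusted p = 0.0164), a call that ended without PBS replicate 2 (0.0848), PDT replicate 1 (0.0517) or PDT replicate 2 (0.0543). The only other endothelial marker tested, Vwf, had a higher mean in PDT and was not called (edgeR adjusted p = 0.219). Its groups overlapped, at 0.358 to 0.612 CPM in PDT and 0.221 to 0.440 in PBS. Of 8 leukocyte markers Ptprc, Adgre1 and Cd3e were at 0, and the sum was 1.98 to 2.46 CPM in PDT and 1.34 to 1.44 in PBS. Cd68 was called higher among them, at 1.37 to 1.48 CPM in PDT and 0.831 to 0.902 in PBS (edgeR adjusted p = 0.00695). The sum of 5 platelet markers was 6.71 to 7.44 CPM in PDT and 6.47 to 6.65 in PBS. Nearly all of it was Itga2b, at 6.57 to 7.15 CPM in PDT and 6.28 to 6.46 in PBS. The sum of 6 epithelial markers was 0.566 to 0.579 CPM in PDT and 0.699 to 1.31 in PBS. The part of these marker differences in the results was not tested. The labels call the samples biological replicates without describing separate cultures, so the p-values reflect how far these libraries spread. Since RNA was taken in bulk, fewer cells making a transcript and less of it per cell cannot be told apart.

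PDT cells had less tissue factor and Serpine2 mRNA and more Plat mRNA than PBS cells. F3 fell 2.38-fold, Serpine2 fell 1.48-fold and Plat rose 1.48-fold. Tfpi and Plau fell by 14.4% and 12.9%, and both calls depended on the processing as given with each gene. Plaur, F2r and Procr did not pass the test, and Tfpi2 had no counts. Of the 9 genes 8 passed the low-count filter, and of these 1 was called higher and 4 lower at an adjusted p under 0.05. Among all 17635 tested genes 36.1% were called, 18.7% higher and 17.5% lower. Fold changes are PDT over PBS, levels are TMM-scaled CPM ± SD over 3 libraries, and p-values are from edgeR's quasi-likelihood test with Benjamini-Hochberg adjustment over all tested genes. The median log2 fold change of the 8 genes was -0.15, and that of all tested genes was 0.01.

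**Figure D1:**
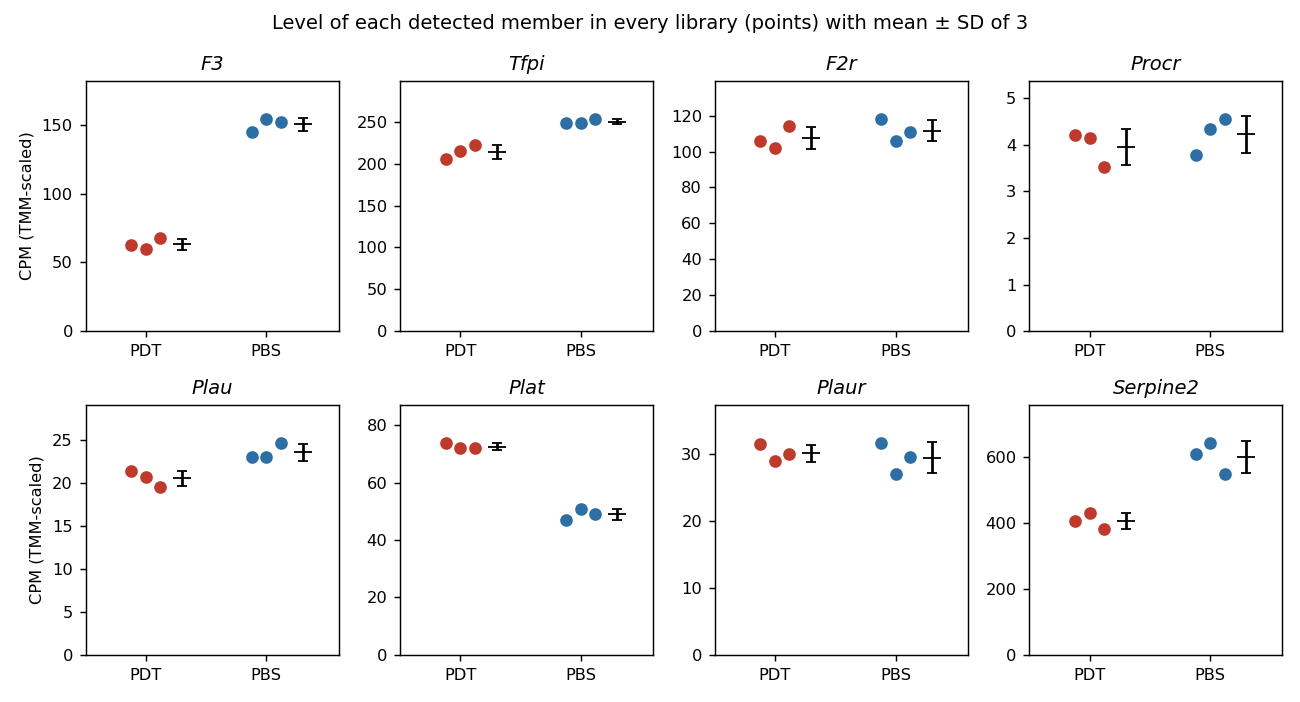
Level of each detected gene in CPM (vertical axes, from 0) in the 3 PDT and 3 PBS libraries, as points, with the mean and SD beside them. The F3 points lie at 59.7 to 67.5 in PDT and 145 to 154 in PBS, the Plat points lie higher in PDT, and the groups overlap for Plaur, F2r and Procr.

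Tissue factor showed the greatest change. F3 had 5614, 6000 and 6789 counts in PDT and 12371, 12621 and 12396 in PBS, or 62.5, 59.7 and 67.5 CPM in PDT and 145, 154 and 152 CPM in PBS. The highest PDT library stood 77.5 CPM below the lowest PBS library. F3 thus fell to 63.2 ± 3.94 CPM in PDT, against 150.4 ± 4.84 in PBS, a log2 fold change of -1.25 ± 0.05 (SE, adjusted p = 2.12e-07). The 95% interval of the fold was 0.388 to 0.455. It ranked 373 from the lowest log2 fold change of all tested genes. F3 was the 1 followed gene called with a change of at least 2-fold. Such calls were made for 3.46% of tested genes, and calls at least 2-fold lower for 2.18%. Without PDT replicate 3 the log2 fold change of F3 was -1.30.

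Tfpi encodes a secreted and cell-bound inhibitor with Kunitz domains that blocks factor Xa and the complex of tissue factor with factor VIIa. It had 205, 215 and 222 CPM in PDT and 248, 249 and 253 CPM in PBS. The groups did not overlap, and every PDT library was lower. The mean was 214.1 ± 8.38 CPM in PDT and 250.1 ± 2.72 in PBS, with a log2 fold change of -0.22 ± 0.04 (adjusted p = 0.00162). With offsets for transcript length and GC content the value was -0.0065 (adjusted p = 0.899), so this call ended. The Tfpi transcript used for these offsets, with 3968 bases and a GC content of 39.7%, was the longest and lowest in GC of the 8 tested genes. Tfpi2, a related inhibitor that is secreted into the matrix, was at 0 counts throughout. At this depth 0 still permits 3 counts per library, equal to 0.0298 to 0.0334 CPM in PDT and 0.0352 to 0.0368 CPM in PBS, counting error only.

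The ratio of F3 to Tfpi counts within a library does not depend on how libraries are scaled. It was 0.278 to 0.304 in PDT and 0.585 to 0.619 in PBS. On the log2 scale it averaged -1.76 ± 0.07 in PDT and -0.73 ± 0.04 in PBS (SD, n = 3 each), a difference of -1.03. PDT libraries lay below PBS libraries without overlap. The exact two-sided permutation test gave p = 0.1, the smallest that 3 against 3 libraries allow. The ratio was not corrected for transcript length and GC content. With those offsets the log2 fold changes were -1.29 for F3 and -0.0065 for Tfpi.

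The receptors on which the pathway acts did not pass the test. F2r, the receptor that thrombin cuts, had 106, 102 and 114 CPM in PDT and 118, 106 and 111 CPM in PBS. The groups overlapped, and the log2 fold change was -0.06 ± 0.05 (adjusted p = 0.457), with a 95% interval of the fold of 0.883 to 1.05. Procr encodes the receptor that presents protein C to the thrombin and thrombomodulin complex. It was low, at 4.22, 4.14 and 3.52 CPM in PDT and 3.79, 4.34 and 4.55 CPM in PBS, on 354 to 416 counts in PDT and 323 to 371 in PBS. Its log2 fold change was -0.09 ± 0.12 (adjusted p = 0.60), and its 95% interval of 0.773 to 1.14 was the widest of the 8.

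Both plasminogen activators were expressed, and they differed in direction. Plat had 73.8, 71.9 and 71.9 CPM in PDT and 47.1, 50.8 and 49.0 CPM in PBS. The lowest PDT library stood 21.2 CPM above the highest PBS library. Plat thus rose to 72.6 ± 1.10 CPM in PDT, against 49.0 ± 1.85 in PBS, with a log2 fold change of 0.57 ± 0.04 (adjusted p = 8.47e-06) and a 95% interval of the fold of 1.39 to 1.58. Of all tested genes 93.9% had a lower log2 fold change than Plat.

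Plau encodes urokinase, the activator that works bound to its receptor on the cell surface. It had 21.4, 20.7 and 19.6 CPM in PDT and 23.0, 23.1 and 24.7 CPM in PBS. The groups did not overlap, but the gap between them was 1.59 CPM. The means were 20.6 ± 0.89 CPM in PDT and 23.6 ± 0.96 in PBS, with a log2 fold change of -0.20 ± 0.06 (adjusted p = 0.0259). The call ended without PDT replicate 2 (adjusted p = 0.0557), PDT replicate 3 (0.0565) or PBS replicate 3 (0.0959), with scaling by library size only (0.0631) and without the low-count filter (0.0536). Plaur, the membrane-anchored urokinase receptor, had 31.4, 28.9 and 29.9 CPM in PDT and 31.6, 27.0 and 29.5 CPM in PBS. The PDT values lay within the range of the PBS values, and the log2 fold change was 0.03 ± 0.07 (adjusted p = 0.731). The 95% interval of the fold was 0.925 to 1.13.

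Serpine2, also called protease nexin-1, is an inhibitor of thrombin, urokinase and tissue-type plasminogen activator. It had 405, 430 and 383 CPM in PDT and 608, 643 and 548 CPM in PBS. All PDT libraries were below all PBS libraries by at least 118 CPM. The means were 405.9 ± 23.6 CPM in PDT and 599.6 ± 48.2 in PBS, with a log2 fold change of -0.56 ± 0.06 (adjusted p = 0.000117). Groups that did not overlap were found for 5 of the 8 tested genes and for 49.0% of all tested genes. Without PDT replicate 3 the log2 fold changes of Serpine2, Plat and Tfpi were -0.53, 0.57 and -0.25.

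**Figure D2:**
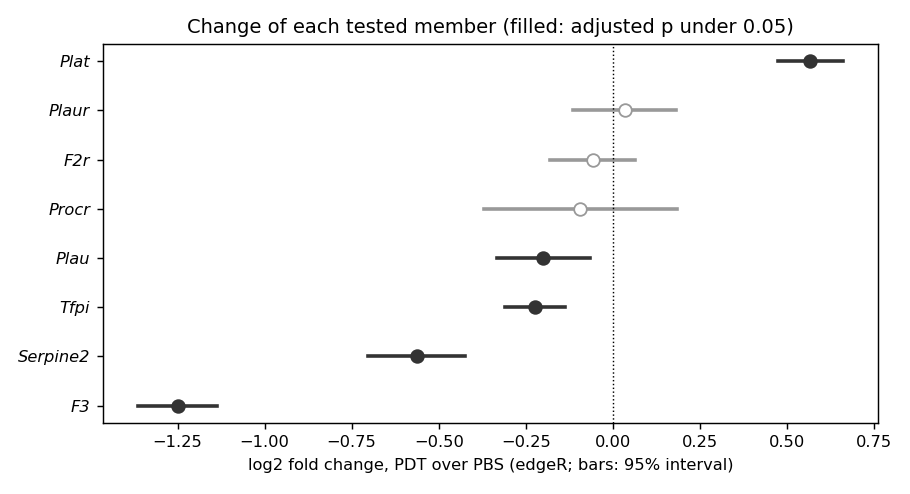
Log2 fold change of PDT over PBS for the 8 tested genes (horizontal axis), with 95% intervals from the quasi-likelihood fit as bars and filled points where the adjusted p was under 0.05. F3 lies at -1.25, Serpine2 at -0.56 and Plat at 0.57, while the intervals of Plaur, F2r and Procr cross 0.

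Ratios of the activators to Serpine2, to each other and to the urokinase receptor were also taken within each library. They come from the same counts as the values above and are not corrected for transcript length. Plat counts were 0.167 to 0.188 of Serpine2 counts in PDT and 0.0775 to 0.0895 in PBS, a difference of 1.13 on the log2 scale. The log2 ratio of Plau to Serpine2 averaged -4.30 ± 0.07 in PDT and -4.66 ± 0.17 in PBS, a difference of 0.36. Plau counts were 0.272 to 0.289 of Plat counts in PDT and 0.456 to 0.504 in PBS. The log2 ratio of Plau to Plaur averaged -0.55 ± 0.07 in PDT and -0.31 ± 0.13 in PBS, and the lowest PBS value of -0.46 was close to the highest PDT value of -0.48. With that of F3 to Tfpi, 5 ratios were compared, each with at least 1 gene whose own values did not overlap between the groups. Each had an exact permutation p = 0.1, the smallest possible here, also when adjusted over the 5.

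**Figure D3:**
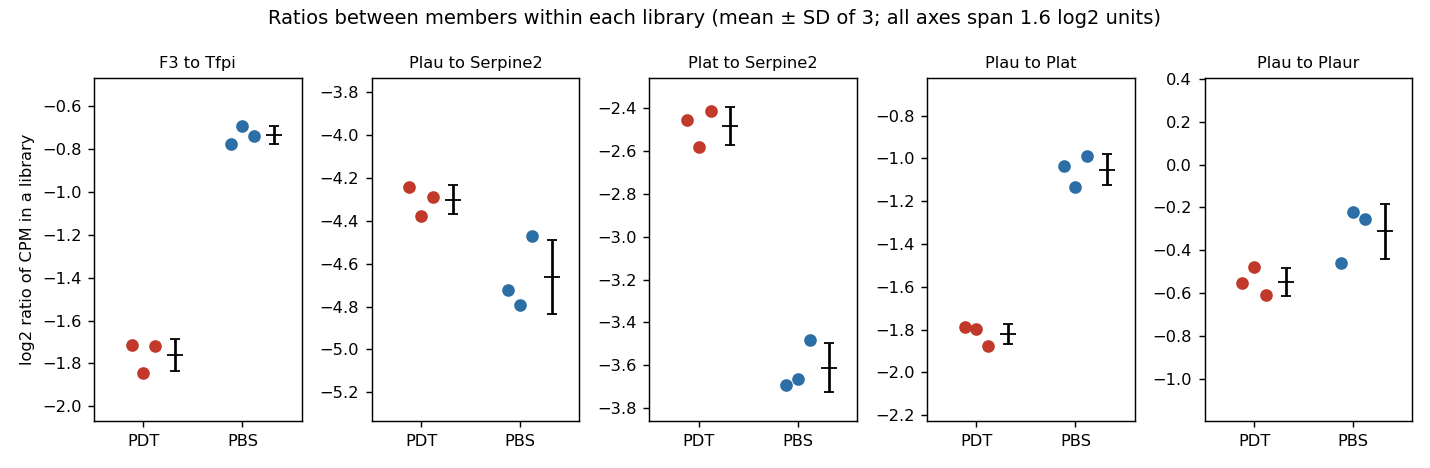
Log2 ratio of the CPM of 2 genes in the same library (vertical axes, each spanning the same length), for 3 PDT and 3 PBS libraries with mean and SD. F3 to Tfpi and Plau to Plat are lower in PDT by 1.03 and 0.77, and Plat to Serpine2 is higher by 1.13.

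To order the genes by level, CPM was divided by the length of the longest coding transcript in kb. In PDT the order was Serpine2 at 184 CPM per kb, Tfpi at 54.0, F3 at 33.8, F2r at 32.2, Plat at 28.7, Plaur at 20.0, Plau at 8.78 and Procr at 2.48. In PBS it was Serpine2 at 271 CPM per kb, F3 at 80.3, Tfpi at 63.0, F2r at 33.5, Plaur at 19.5, Plat at 19.4, Plau at 10.1 and Procr at 2.64. The libraries of F3 and F2r overlapped in PDT (31.9 to 36.0 and 30.5 to 34.2 CPM per kb), and those of Plaur and Plat overlapped in PBS (17.9 to 21.0 and 18.6 to 20.1). All other neighbours were apart in every library. Tfpi has coding transcripts of 1232 to 3968 bases. With the shortest of each gene, Tfpi had 174 CPM per kb in PDT and 203 in PBS, and F3 had 55.9 in PDT and 133 in PBS, so the place of F3 above Tfpi in PBS depends on the transcripts counted.

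RefSeq promoter windows (build GRCm38.p6, 250 bases before to 50 after a transcript start) were held for 7 of the 9 genes, not for Plau and Plat. The windows of F3 and Serpine2, which fell most, and of Plaur and F2r, which did not pass the test, are shown 5′ to 3′ so that genes that moved can be set beside genes that did not. Capitals mark matches to the AP-1 letters TGANTCA and to the Sp1 letters GGGCGG on either strand, and matches to the Sp1 letters may overlap or abut each other.
F3: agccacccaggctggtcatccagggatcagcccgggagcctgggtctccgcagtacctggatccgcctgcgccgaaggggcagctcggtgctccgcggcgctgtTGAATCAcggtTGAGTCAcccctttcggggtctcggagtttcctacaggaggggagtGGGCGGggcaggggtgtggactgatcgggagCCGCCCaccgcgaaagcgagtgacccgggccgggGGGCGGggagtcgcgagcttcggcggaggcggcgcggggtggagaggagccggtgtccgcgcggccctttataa
Serpine2: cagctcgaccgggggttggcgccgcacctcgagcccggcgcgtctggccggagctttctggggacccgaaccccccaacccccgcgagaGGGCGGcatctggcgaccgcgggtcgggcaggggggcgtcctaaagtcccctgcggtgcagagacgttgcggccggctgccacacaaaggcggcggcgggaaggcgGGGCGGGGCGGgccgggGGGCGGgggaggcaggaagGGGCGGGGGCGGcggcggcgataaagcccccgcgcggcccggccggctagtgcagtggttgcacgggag
Plaur: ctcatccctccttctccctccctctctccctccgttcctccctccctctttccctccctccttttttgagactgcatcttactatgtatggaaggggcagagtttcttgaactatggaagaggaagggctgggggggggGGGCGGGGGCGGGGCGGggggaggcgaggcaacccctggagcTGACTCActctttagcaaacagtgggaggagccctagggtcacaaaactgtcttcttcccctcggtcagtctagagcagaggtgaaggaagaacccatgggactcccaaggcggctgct
F2r: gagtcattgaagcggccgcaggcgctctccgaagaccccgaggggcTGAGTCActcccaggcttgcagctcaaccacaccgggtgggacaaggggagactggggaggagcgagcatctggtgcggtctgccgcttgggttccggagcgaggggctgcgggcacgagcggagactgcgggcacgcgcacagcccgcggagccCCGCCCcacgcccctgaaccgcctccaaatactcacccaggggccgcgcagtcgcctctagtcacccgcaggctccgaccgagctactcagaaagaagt
The windows are chr3:121723287-121723586 on the plus strand for F3, chr1:79858616-79858915 on the minus strand for Serpine2, chr7:24462233-24462532 on the plus strand for Plaur and chr13:95618417-95618716 on the minus strand for F2r.

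The F3 window held 2 AP-1 matches, starting 146 and 135 bases before the transcript start. At least 2 such matches were found in 0.5% of all 32851 windows of the same length, and at least 1 in 7.8%. Single AP-1 matches lay 69 bases before the start of Plaur, 204 before that of F2r and 154 before that of Procr, and 1 of the 3 windows of Tfpi2 held 1 as well. Serpine2 and both windows of Tfpi held none. So AP-1 letters stood in windows of a gene that fell and of genes that did not pass the test. Sp1 letters were matched 6 times in Serpine2, 3 times each in F3 and Plaur, 2 times in 1 window of Tfpi2 and once each in F2r and in both windows of Tfpi. At least 1 such match was found in 35.7% of all windows and at least 2 in 19.5%. The TEAD letters GGAATG had no match in the windows of these genes (14.7% of all windows), and the SMAD letters CAGACA were matched at 1 place that lies in 2 overlapping windows of Tfpi2 (21.0% of all windows). These matches describe letters and not binding.

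The genes whose pattern over the 6 libraries was nearest to that of F3, by distance between centred log2 CPM among 10233 named genes, were Phldb2, Col5a2 and Megf10. With 2 groups of 3 libraries this distance mostly follows the fold change, here -1.35, -1.31 and -1.19 on the log2 scale. Since 385 genes were called at least 2-fold lower, near neighbours were likely, and shared regulation was not tested. Phldb2 (distance 0.141) had 195.5 ± 11.3 CPM in PDT and 497.4 ± 7.07 in PBS, and Col5a2, a chain of collagen V, had 379.6 ± 11.3 in PDT and 943.2 ± 27.9 in PBS. For Plau, the nearest were Smarcd3 (distance 0.0425), Zfp146 and Cep76, with log2 fold changes of -0.22, -0.21 and -0.18. Cep76 was called in 4 of 14 other settings, Smarcd3 was not called without PBS replicate 3 (-0.19, adjusted p = 0.0631), and with offsets Smarcd3 was at -0.36.

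The other genes of the pathway were described from 3 lists. Of 31 further genes of the plasminogen system, 20 were tested, of which 4 were higher and 6 lower (median log2 fold change -0.05). Plasminogen itself (Plg), which the liver supplies, had 0 counts in every library. Of the pair that docks plasminogen on cells, S100a10 rose by 0.28 ± 0.07, to 300.9 ± 24.7 CPM in PDT, against 247.3 ± 18.8 in PBS (adjusted p = 0.00991), a call that ended with length and GC offsets (0.07, adjusted p = 0.237). Its partner Anxa2 had 1047 ± 60.1 CPM in PDT and 1027 ± 77.9 in PBS (adjusted p = 0.753). Eno1, a glycolytic enzyme that also serves as a plasminogen receptor at the cell surface, fell by 0.44 ± 0.05 (-0.57 with offsets), but it has near-identical copies and its counts are uncertain. Lrp1, the endocytic receptor that clears activators bound to serpins, fell by 0.11 ± 0.03 (1400 ± 31.9 CPM in PDT and 1511 ± 13.3 in PBS), and Mrc2, the collagen receptor that associates with the urokinase receptor, fell by 0.14 ± 0.04. Of 14 other settings, Lrp1 was called in 6 and Mrc2 in 10, and Lrp1 was at 0.043 with offsets (adjusted p = 0.391). Hgf, a growth factor that needs cleavage by proteases to become active, fell to 202.3 ± 8.36 CPM in PDT, against 374.1 ± 25.3 in PBS. Its log2 fold change was -0.89 ± 0.05, or -0.69 with offsets. The gelatinase gene Mmp2 and the metalloproteinase inhibitor gene Timp1 fell by 0.39 ± 0.04 and 0.65 ± 0.04. Mmp2 was at -0.49 and Timp1 at -0.85 with offsets. The remaining genes of this list that were called higher, named after their values were seen, were Timp2, Serpinb8 and Mmp3. Timp2, a second metalloproteinase inhibitor, rose by 0.30 ± 0.04, to 802.9 ± 17.0 CPM in PDT, against 652.2 ± 33.3 in PBS (adjusted p = 0.000581), and by 0.22 with offsets. The serpin gene Serpinb8 rose by 0.23 ± 0.04, to 61.4 ± 0.45 CPM in PDT, against 52.2 ± 0.63 in PBS (adjusted p = 0.00103), and by 0.41 with offsets. With scaling by library size only, 7 genes of this list were higher and 4 lower.

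Of 30 coagulation factors, cofactors and inhibitors 16 were tested, with 1 higher and 7 lower (median -0.25). The gene called higher was F5, named after its values were seen. The factors made by liver were hardly seen. F10 had 0 counts in every library. Prothrombin (F2) had 4 counts in PDT replicate 2 and 0 elsewhere, and factor VII (F7), the partner of tissue factor, had 4, 8 and 4 counts in PDT and 0 in PBS, where 0 allows up to 3 counts per library. Neither was tested. Thrombomodulin (Thbd), which turns thrombin toward activating protein C, was well expressed, at 150.9 ± 5.70 CPM in PDT and 153.9 ± 3.75 in PBS (adjusted p = 0.627), in cells whose endothelial markers were near 0. Protein S (Pros1), a cofactor of activated protein C and of TFPI, fell by 0.21 ± 0.04, to 65.3 ± 1.56 CPM in PDT, against 75.7 ± 2.46 in PBS, and was at -0.14 with offsets. P4hb, a protein disulfide isomerase, fell by 0.50 ± 0.04, and Lman1, the cargo receptor for factors V and VIII, by 0.38 ± 0.03. Ggcx, the vitamin K-dependent carboxylase, fell by 0.28 ± 0.05. With offsets P4hb was at -0.60, Lman1 at -0.28 and Ggcx at -0.36.

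Of 27 genes of protease-activated receptors, their signalling and the partners of the urokinase receptor 22 were tested, with 3 higher and 10 lower (median -0.11). F2rl1, the receptor cut by trypsin-like proteases and by the tissue factor complex, had 0 counts in all libraries, and so had F2rl2. Among signalling genes, the G protein subunit Gna12 rose by 0.33 ± 0.04, or by 0.25 with length and GC offsets. The phospholipase Plcb1 fell by 0.40 ± 0.05, or by 0.23 with offsets. The other genes called higher, named after their values were seen, were the G protein subunit Gna11 at 0.22 ± 0.04 (0.13 with offsets) and the arrestin Arrb2 at 0.45 ± 0.06 (0.32 with offsets). The integrin subunits Itgav and Itgb1, which pair with the urokinase receptor or bind matrix, fell by 0.62 ± 0.04 and 0.28 ± 0.04. Itgav had 290.5 ± 14.6 CPM in PDT and 447.2 ± 2.34 in PBS. With offsets Itgav was at -0.43 and Itgb1 at -0.22. Called shares were 50%, 50% and 59.1% of the tested genes of the 3 lists, beside 36.1% of all tested genes. The share of all genes depends on how many low-count genes are kept. Under the stricter filter, with 1 CPM or more on average, 3002 genes were called higher and 3153 lower of 12831 tested. The lists were not matched to other genes by level. No list was tested against other genes.

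**Figure D4:**
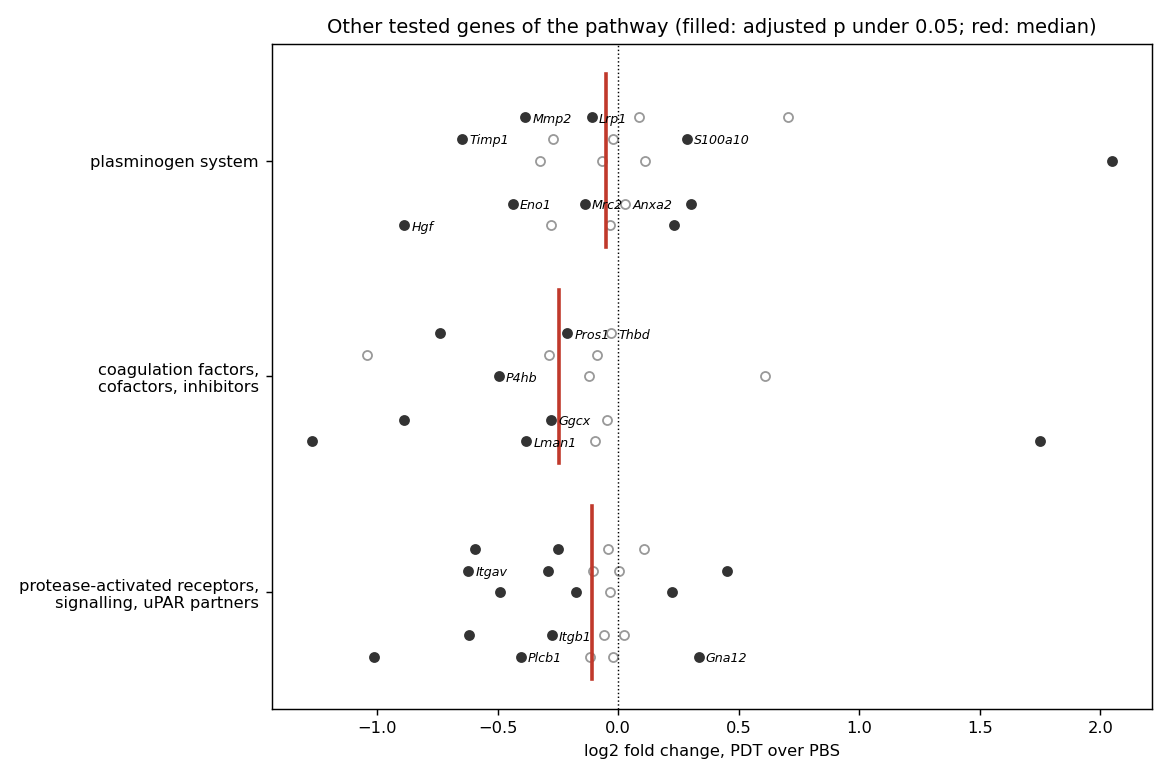
Log2 fold change of PDT over PBS (horizontal axis) of the tested genes of 3 pathway lists, with filled points where the adjusted p was under 0.05, names for the genes picked by rule and red lines at the medians of -0.05, -0.25 and -0.11. Vertical position within a list only separates the points.

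Across 14 other settings, F3, Serpine2 and Plat kept their direction and their call in each. Their log2 fold changes ran from -1.30 to -1.20 for F3, from -0.63 to -0.51 for Serpine2 and from 0.48 to 0.62 for Plat. Plaur, F2r and Procr were called in none of them, and the sign of Plaur varied.

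**Figure D5:**
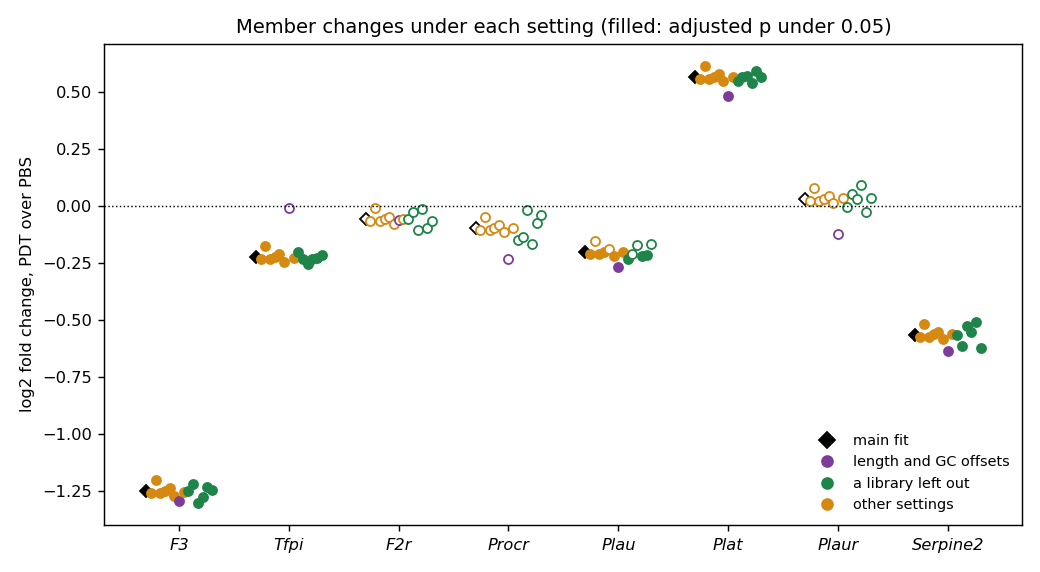
Log2 fold change of PDT over PBS (vertical axis) of the 8 tested genes under the reported fit and 14 other settings, with filled points where the adjusted p was under 0.05. The points of F3, Serpine2 and Plat stay together, Tfpi reaches -0.0065 with length and GC offsets, and Plau has open points in 5 settings.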

How the data were processed

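RNA was sequenced from 3 PDT and 3 PBS samples. The authors deposited raw read counts, 1 whole number per gene symbol and sample. The libraries were rRNA-depleted and directional, per the labels' protocols. Tools named there are cutadapt 4.6 and STAR 2.7.11b, with the build GRCm39, per the submitters' processing notes. For their settings, the counter, the annotation and the use of strand, nothing is given in the sources used here, so counts of genes with close copies or antisense partners are uncertain. Totals ran from 83195529 to 99527847 counts.

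Genes were filtered with filterByExpr and scaled by TMM, and PDT was compared with PBS in R 4.3.3 with edgeR 4.0.16 (glmQLFTest, group as the only term), with a threshold of 0.05 after Benjamini-Hochberg adjustment over 17635 genes. The SE is the size of the log2 fold change divided by the square root of F. Log2 CPM used a prior count of 2. Ratios were tested by exact permutation. The ratio of F3 to Tfpi2 could not be formed, as Tfpi2 had no counts.

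As alternatives the tools DESeq2 1.42.0 and limma 3.58.1 (voom), scaling by RLE or by library size alone, no filter, a filter that kept genes with 10 counts or more in 3 libraries and 1 CPM or more on average, a replicate block, each library left out, and length and GC offsets per library (mgcv 1.9.3), from the longest coding GENCODE M21 transcript (else the longest) of 16356 genes (92.7%). That annotation and the promoters are of an earlier build than the counts. The genes followed and the lists were chosen with earlier results of these data known. Named genes are those followed, up to 4 called genes per list with the lowest adjusted p, 10 fixed genes and the 3 nearest in pattern to F3 and to Plau. Some genes of the pathway are not reported here.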

Additional observations from a re-analysis of the deposited data

How the results depend on the processing

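Of the 8 tested genes, 6 kept their call or its absence under each alternative. Plau was no longer called with library size only (-0.15), without the filter (-0.19) or in 3 of the 6 fits that left out a library, where it ran from -0.23 to -0.17 (adjusted p = 0.0357 to 0.0959), and Tfpi was no longer called with length and GC offsets (-0.0065). With offsets Lrp1 changed sign (0.043) and S100a10 was at 0.07. The offsets also take out any effect of treatment that follows length or GC. The count of higher genes moved to 7 in the plasminogen list with library size only, to 0 in the coagulation list with the stricter filter, under which fewer genes were tested, and to 5 in the receptor list with offsets; beyond the smaller gene set the cause was not tested. Over all genes 3294 were called higher and 3078 lower, with 4290 higher and 2517 lower by library size only, which raised the share of higher calls to 63% against 51.7%. The labels do not say whether the replicate numbers pair the samples. Deviations of same-numbered libraries correlated with r of -0.0122, 0.014 and 0.0047, and not every library correlated best with its own number. With 3 libraries per group, these values showed no shared replicate effect but cannot decide whether samples were paired. With the replicate number as a block 3093 genes were called higher and 2974 lower, and 1 higher and 4 lower of the genes followed. With that block the log2 fold change was -1.25 for F3, -0.56 for Serpine2, 0.57 for Plat, -0.22 for Tfpi and -0.20 for Plau. Depth sets a limit for Tfpi2, Plg, F10, F2rl1 and F2rl2, which had no counts, and F2, F7 and F2rl3 were too low to be tested.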

Other observations

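Further genes of the pathway lists, all with low counts, were picked with their values in view. The stromelysin gene Mmp3, an activator of other matrix metalloproteinases, rose by 2.05 ± 0.33 on the log2 scale, to 0.855 ± 0.179 CPM in PDT, against 0.206 ± 0.068 in PBS (edgeR adjusted p = 0.00102). F5, the gene of factor V, the cofactor of factor Xa, rose by 1.75 ± 0.36, to 0.733 ± 0.240 CPM in PDT, against 0.216 ± 0.069 in PBS (edgeR adjusted p = 0.00447). F13a1, the catalytic subunit of the fibrin-crosslinking factor XIII, fell by 1.27 ± 0.27, and F8, the gene of factor VIII, by 0.89 ± 0.19, or by 0.49 with length and GC offsets (edgeR adjusted p = 0.0357). Itgb3, the integrin subunit of the vitronectin receptor, fell by 1.01 ± 0.13, to 1.76 ± 0.20 CPM in PDT, against 3.55 ± 0.02 in PBS. Tgm2, tissue transglutaminase, fell by 0.74 ± 0.15. F2rl3, the platelet-type thrombin receptor, had 6, 4 and 5 counts in PDT and 21, 7 and 14 in PBS and was not tested.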
